A study of Rattus norvegicus with 60 samples.

Results

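Livers of 5 rats given perfluorooctanoic acid (PFOA) at 5 mg/kg per day for 14 days were compared with livers of 5 rats given vehicle for the same time, 10 of the 60 libraries of the series. The libraries were chosen by their treatment label. The 60 animals were male Sprague-Dawley rats in 12 groups of 5, given water or PFOA at 1, 5 or 15 mg/kg per day by oral gavage at 10 ml/kg for 7, 14 or 28 days. Both groups compared here were 8 to 9 weeks old by their labels, carried no genetic change that the labels name and differed by treatment. Livers were flash frozen, and polyadenylated RNA was sequenced from stranded libraries. Each library came from 1 rat, and rats are numbered 1 to 5 within a group only as names.

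PFOA is a fluorinated fatty acid analogue that activates PPARalpha, a nuclear receptor that binds DNA with a retinoid X receptor partner and switches on genes for fatty acid uptake, peroxisomal and mitochondrial oxidation and ketone body synthesis. In rodents such activators also enlarge the liver and multiply its peroxisomes. The liver further carries CAR and PXR, receptors that induce drug-metabolizing P450 enzymes, and SREBP transcription factors, which drive sterol and fatty acid synthesis.

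PPARalpha binds a direct repeat of AGGTCA-like half-sites, so the sequences just before the start of transcription are given for 5 genes with a reason for each. They come from RefSeq on GRCr8 and run from 250 bases before to 50 bases after the start, in the direction of the gene, and capitals mark AGGTCA on either strand. Acot1 and Stac3 had the largest fitted rise and fall among the named genes, Ucp3 is a gene that rose and has a match, Acadvl is a mitochondrial oxidation gene with 2 matches, and the Abcg5 window lies almost wholly within that of Abcg8, which is transcribed the other way and also fell.
Acot1 (chr6:109367024-109367323, plus strand): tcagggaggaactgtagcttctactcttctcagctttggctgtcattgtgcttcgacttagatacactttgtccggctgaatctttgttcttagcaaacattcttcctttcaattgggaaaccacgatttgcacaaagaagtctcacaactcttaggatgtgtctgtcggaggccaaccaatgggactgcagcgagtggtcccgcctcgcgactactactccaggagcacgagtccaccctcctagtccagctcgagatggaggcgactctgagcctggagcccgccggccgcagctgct
Ucp3 (chr1:164227660-164227959, plus strand): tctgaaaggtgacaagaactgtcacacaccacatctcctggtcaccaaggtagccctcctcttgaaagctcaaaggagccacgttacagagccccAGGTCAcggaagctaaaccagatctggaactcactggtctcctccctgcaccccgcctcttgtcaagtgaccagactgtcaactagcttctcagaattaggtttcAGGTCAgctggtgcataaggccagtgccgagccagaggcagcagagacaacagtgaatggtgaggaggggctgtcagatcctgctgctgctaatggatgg
Acadvl (chr10:55236656-55236955, minus strand): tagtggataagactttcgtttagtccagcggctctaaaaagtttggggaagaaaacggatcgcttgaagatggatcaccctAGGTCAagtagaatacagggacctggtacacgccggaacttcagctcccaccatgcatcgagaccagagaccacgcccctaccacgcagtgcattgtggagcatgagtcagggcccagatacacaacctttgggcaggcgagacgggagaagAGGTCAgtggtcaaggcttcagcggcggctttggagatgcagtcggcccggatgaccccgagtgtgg
Stac3 (chr7:65228225-65228524, plus strand): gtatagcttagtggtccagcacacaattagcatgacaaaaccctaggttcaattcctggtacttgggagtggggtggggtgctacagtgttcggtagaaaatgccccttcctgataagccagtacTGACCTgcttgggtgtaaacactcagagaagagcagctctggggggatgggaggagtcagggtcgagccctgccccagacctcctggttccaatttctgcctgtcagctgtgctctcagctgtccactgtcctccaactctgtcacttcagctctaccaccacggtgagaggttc
Abcg5 (chr6:15717686-15717985, plus strand): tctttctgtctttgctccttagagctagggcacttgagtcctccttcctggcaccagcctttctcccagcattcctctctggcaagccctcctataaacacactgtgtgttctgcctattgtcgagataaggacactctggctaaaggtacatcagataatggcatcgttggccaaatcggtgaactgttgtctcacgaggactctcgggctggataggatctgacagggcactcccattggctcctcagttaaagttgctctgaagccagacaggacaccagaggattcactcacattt

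In all, 3 motifs were searched on both strands and a direct repeat can contain the half-site. The half-site AGGTCA occurred in 16.2% of all 33469 RefSeq promoters of this length. It was looked for in 63 of the named genes, those of the fixed set and of the largest fold changes. Of these, 43 had exactly 1 promoter entry and were searched. Genes with no entry or more than 1 were left out, here and in the lists below, a limit not put on all promoters. The half-site occurred in 1 of 22 searched genes that rose and in 7 of 18 that fell. Named genes taken from the lists alone, such as Eci1, which rose and has a match, are not in these counts. In the lists of peroxisomal oxidation, mitochondrial oxidation and acyl-CoA thioesterases it occurred in 10 of 32 genes that rose, or 31.2%, and in 3 of 9 that were not called. The direct repeat AGGNCANAGGNCA occurred in 0.415% of all promoters and in 0 of these 43 genes. TCACNCCAC, a sterol regulatory element searched after the values were seen, occurred in 1.12% of all promoters and in 0 of 17 cholesterol synthesis genes. It occurred in 2 of the 43 named genes and in 2 of 43 genes of the oxidation and thioesterase lists, sets that share genes. A match is only a match of letters in this window.

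Total counts ran from 7965497 to 17682937 in the vehicle libraries and from 8507815 to 14044608 in the PFOA libraries. The largest axis of variation within groups over the 60 libraries took 58.93% of the within-group variance of the 12167 genes tested. The score was built from the 500 genes most correlated with this axis, of which 439 correlated negatively. The score of a library on this axis was fitted as a covariate. Scores were -0.48, 0.68, -0.78, -1.45, -0.78 in vehicle rats 1 to 5 and -1.11, -0.66, 0.91, -1.22, -2.32 in PFOA rats 1 to 5, so the groups overlapped, and PFOA rat 5 had the lowest score of the series. The group means did not pass an exact two-sided permutation test (p = 0.635). The share of reads from ribosomal protein genes was 2.19% ± 0.957 (SD, n = 5) with vehicle and 3.85% ± 2.33 (SD, n = 5) with PFOA (exact permutation p = 0.19).

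**Figure D1:**
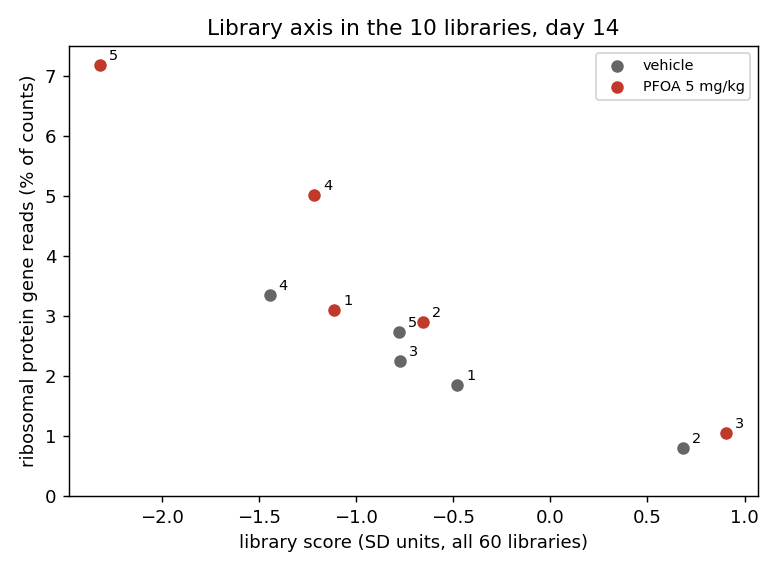
Library score (x axis, SD units over the 60 libraries) against the percent of counts from ribosomal protein genes (y axis) for the 5 vehicle and 5 PFOA libraries of day 14, each point 1 rat with its number. PFOA rat 5 has the lowest score and 7.18% ribosomal protein reads.

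Of 12167 genes tested, 1915 were higher and 1904 lower after PFOA (edgeR's quasi-likelihood test with Benjamini-Hochberg adjustment, adjusted p below 0.05), 31.4% of the genes, with 15.7% higher and 15.6% lower. Without the score 666 genes were higher and 641 lower, or 10.7%, 5.47% higher and 5.27% lower. The fits called 665 genes higher and 641 lower together, and 0 in opposite directions. At least 2-fold changes were seen in 462 higher and 540 lower genes, and at least 4-fold changes in 151 and 91. Levels of the 5 PFOA rats lay wholly above those of the 5 vehicle rats for 468 genes and wholly below for 503, which is 3.85% and 4.13% of the genes and 7.98% together. The median log2 fold change of all genes was 0.00. Levels below are CPM (a gene's reads scaled to library size with trimmed mean of M values), and fold changes are log2 with the standard error. List counts are to be read against 15.7% higher and 15.6% lower. List counts without the score are to be read against 5.47% higher and 5.27% lower.

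Genes of peroxisomal fatty acid oxidation rose in most cases. Ehhadh, the peroxisomal bifunctional enzyme, stood at 612, 953, 637, 517 and 470.2 CPM in vehicle rats 1 to 5 and at 12178, 12646, 15711, 10450.0 and 16554 CPM in PFOA rats 1 to 5. Every PFOA rat was far above every vehicle rat, and the log2 fold change was 4.51 ± 0.22 (SE, n = 5 per group, edgeR adjusted p = 3.59e-23). Of 20 tested genes of peroxisomal fatty acid oxidation 12 rose and 1 fell, with a median of 0.77 (9 and 0 without the score). Acaa1a, the peroxisomal thiolase, rose by 2.89 ± 0.34, Ech1, a dienoyl-CoA isomerase, by 2.25 ± 0.13, and the carnitine transferases Crot and Crat by 2.28 and 2.26. Scp2, sterol carrier protein, was the 1 gene that fell, by 0.41, a call lost without the score (adjusted p = 0.158, edgeR), without vehicle rat 4 (adjusted p = 0.075, edgeR) or without PFOA rat 3 (adjusted p = 0.0715, edgeR). Of 17 peroxisome assembly genes 12 rose and 1 fell (median 0.49; 7 and 0 without the score), led by Pex11a, which drives peroxisome division, at 2.70 ± 0.15.

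Acyl-CoA thioesterases, which release free fatty acids from CoA, included the largest fitted rise among the named genes, although for Otop1, with no vehicle read, only a lower bound can be given. Acot1, a cytosolic member, was at 1.4, 0.471, 0.896, 0.142 and 0.124 CPM in the vehicle rats and 750.4, 779.9, 626, 738 and 767 CPM in the PFOA rats. Vehicle livers held almost none and the PFOA livers were close to each other, with rat 3 lowest; the log2 fold change was 9.91 ± 0.56 (SE, n = 5 per group, edgeR adjusted p = 2.21e-19). In all 8 of 10 thioesterases rose and 0 fell (median 1.89), among them Acot2 at 3.29 and Acot3 at 3.07. These genes are close paralogues, and how reads shared between them were counted is not given in the sources used here. Microsomal omega-hydroxylation split: of 12 tested genes 3 rose and 3 fell (median 0.26). Cyp4a1, the main fatty acid omega-hydroxylase of this family, was at 487, 715, 290.4, 181 and 228 CPM with vehicle and 2955, 4089, 5644, 2663 and 1692 CPM with PFOA. All PFOA rats were above all vehicle rats, rat 3 highest and rat 5 lowest (log2 fold change 3.40 ± 0.20, edgeR adjusted p = 3.86e-20). Cyp4a3 rose by 1.59, whereas Cyp4f1, a leukotriene and fatty acid hydroxylase of another subfamily, fell by 0.94.

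Mitochondrial oxidation rose as a group. Of 21 genes of the carnitine shuttle and mitochondrial beta-oxidation 19 rose and 1 fell, with a median of 0.92. Cpt1b, the muscle form of the carnitine gatekeeper, was at 1.22, 1.13, 0.512, 0.712 and 0.743 CPM in vehicle rats and 18.2, 42.5, 127, 51.7 and 46.9 CPM in PFOA rats. It was low in every vehicle liver and varied widely between the PFOA livers, all of them above (log2 fold change 6.05 ± 0.62, edgeR adjusted p = 1.31e-10). Cpt1a, the liver form, rose by 0.87 ± 0.16, though its groups overlapped and its call was lost without the score (adjusted p = 0.136, edgeR). Eci1, Hadha and Slc22a5, which act on unsaturated fats, in the trifunctional protein and in carnitine uptake, rose by 2.34, 1.34 and 1.78. Acadsb, an enzyme of branched-chain acyl-CoA, was the 1 that fell, by 0.97. Of 8 ketone body genes 5 rose and 0 fell (median 0.85).

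**Figure D2:**
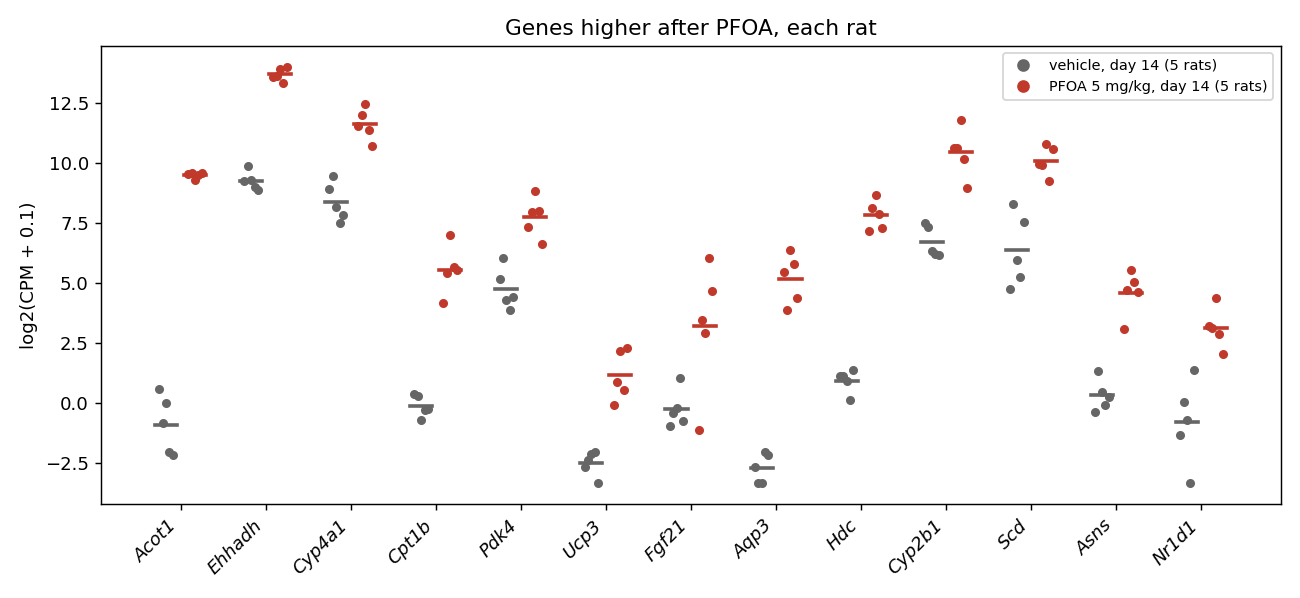
Levels of 13 genes that were called higher, as log2(CPM + 0.1) (y axis) for each of the 5 vehicle and 5 PFOA rats of day 14, with a line at the mean of each group. Groups are apart for every gene shown except Fgf21, where PFOA rat 1 lies below the vehicle rats.

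Other lipid genes of the PPARalpha list moved the same way, 22 of 31 rising and 1 falling (median 1.41). Pdk4, the kinase that shuts off pyruvate dehydrogenase, was at 31.5 ± 20.9 CPM with vehicle and 246.8 ± 137 CPM with PFOA (SD, n = 5), without overlap (log2 fold change 3.17 ± 0.34, edgeR adjusted p = 6e-10). Ucp3, an inner mitochondrial membrane protein mainly of muscle, was at 0.0607, 0.0943, 0.128, 0.142 and 0 CPM and 0.844, 1.76, 4.45, 1.35 and 4.81 CPM. Its levels were near 0 with vehicle and low but present in every PFOA liver (log2 fold change 4.92 ± 1.02, edgeR adjusted p = 0.000288). Fgf21, a hormone that liver releases in fasting, was at 0.425, 0.66, 0.768, 1.99 and 0.495 CPM with vehicle and 0.362, 10.9, 7.55, 66.2 and 25.1 CPM with PFOA. PFOA rat 1 was below every vehicle rat while rat 4 was highest, so the groups overlapped (log2 fold change 4.54 ± 0.88, edgeR adjusted p = 6.85e-05). Vnn1, Plin2 and Angptl4, for pantetheine cleavage, lipid droplets and lipase inhibition, rose by 2.90, 1.95 and 1.39. Ppara itself was at 0.32 ± 0.27 and was not called.

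Several leading genes are not classical oxidation genes. Aqp3, a glycerol and water channel, was at 0.0607, 0, 0, 0.142 and 0.124 CPM with vehicle and 43.6, 14.5, 84.3, 55.4 and 20.6 CPM with PFOA. It had 3 reads in the vehicle libraries together against 2359 with PFOA, a ratio of 750.2 (95% interval 256.4 to 3640.2, counting error only, edgeR adjusted p = 2.2e-08). Otop1, a proton channel, had 0 reads in the 5 vehicle libraries and 1.45, 7.43, 5.66, 5.3 and 4.03 CPM in PFOA rats 1 to 5. Against 3 reads over the group it was at least 87.13-fold higher. Hdc, which makes histamine, was at 2.12, 2.07, 1.79, 0.997 and 2.48 CPM and 144, 280.9, 411, 236 and 157 CPM. Every PFOA rat was far above every vehicle rat, rat 3 highest (log2 fold change 6.99 ± 0.77, edgeR adjusted p = 1.27e-09). LOC100361547, annotated as a Cyp2c7-like P450, was at 2, 1.32, 1.02, 2.28 and 1.49 CPM and 15.6, 12.2, 361, 12.1 and 4.81 CPM. Groups did not overlap but PFOA rat 3 stood far above the other PFOA rats; the log2 fold change of 5.62 (adjusted p = 0.0148, edgeR) was 2.56 and no longer called without that rat (adjusted p = 0.283).

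Of 15 genes of CAR, PXR and their target P450s 7 rose and 3 fell (median 0.10; 5 and 1 without the score). Cyp2b1, the classical CAR target in rat, was at 183, 160.4, 81, 75.1 and 71.9 CPM with vehicle and 1599.8, 1573, 3590.1, 1158 and 500.2 CPM with PFOA. PFOA rat 5 was the lowest of its group and still above every vehicle rat (log2 fold change 3.89 ± 0.38, edgeR adjusted p = 1.95e-11). Cyp2b2, its near-identical neighbour, rose by 3.47, and reads may be shared between them. Aldh1a7 and Aldh1a1, aldehyde dehydrogenases, rose by 3.99 and 2.37, whereas Cyp3a18 and Cyp2c7 fell by 1.23 and 1.37. The Cyp2c7 call was lost without vehicle rat 1 (adjusted p = 0.0627), PFOA rat 4 (adjusted p = 0.0933) or PFOA rat 5 (adjusted p = 0.0881). Of 24 conjugating enzymes 0 rose and 7 fell (median -0.27), and 4 fell without PFOA rat 5 and 1 without the score. Of 18 NRF2 antioxidant genes 2 rose and 2 fell, and 0 and 1 without the score.

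In the lipogenic and triglyceride list more genes rose than fell, though 11 of 22 were not called, while none of the sterol genes described next was called higher. Scd, which desaturates stearate, was at 26.6, 312.8, 62.6, 38 and 188 CPM with vehicle and 1010.2, 957, 1772, 614 and 1544 CPM with PFOA. Vehicle rats spread widely but all lay below the PFOA rats (log2 fold change 3.51 ± 0.60, edgeR adjusted p = 1.18e-05). Srebf1, the lipogenic regulator, rose by 1.69 ± 0.30 and Me1, which supplies NADPH, by 1.83 ± 0.26, while Fasn, fatty acid synthase, stood at 0.20 ± 0.45 and was not called. Of 22 lipogenic and triglyceride genes 9 rose and 2 fell (median 0.28; 6 and 0 without the score).

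Sterol genes fell together: of 25 cholesterol synthesis and SREBP2 target genes 0 rose and 14 fell, with a median of -0.79. Idi1, isopentenyl diphosphate isomerase, was at 195, 66.3, 233, 255.96 and 140.4 CPM with vehicle and 33.6, 19.5, 8.91, 26.5 and 32.6 CPM with PFOA. PFOA rat 3 was lowest and no rat overlapped the other group (log2 fold change -3.08 ± 0.40, edgeR adjusted p = 4.34e-08). Insig1 and Sqle, a sterol-sensing regulator and squalene epoxidase, fell by 2.06 and 1.67.

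Lipoprotein and sterol export genes fell too, 14 of 25, with 4 rising (median -0.70; 7 and 3 without the score). Apoa4, an apolipoprotein, was at 376, 868, 507, 375 and 646 CPM with vehicle and 48.7, 45.4, 24.5, 23.1 and 44.8 CPM with PFOA. The groups were far apart (log2 fold change -3.82 ± 0.53, edgeR adjusted p = 1.91e-07). Abcg5 and Abcg8, the partner subunits of the sterol exporter whose starts lie head to head in the window printed above, were at 86.2, 90.7, 103, 74.1 and 66.7 and 23.3, 31.7, 22.3, 8.97 and 12.2 CPM with vehicle. With PFOA they were at 33.3, 14.3, 6.42, 12.6 and 11.6 and 2.53, 1.55, 0.679, 1.87 and 0.621 CPM, PFOA rat 1 highest for both, and neither overlapped (log2 fold change -2.56 ± 0.44, edgeR adjusted p = 1.27e-05 for Abcg5, log2 fold change -3.59 ± 0.61, edgeR adjusted p = 1.09e-05 for Abcg8). Lpl, lipoprotein lipase, Mttp, which loads lipid on apolipoprotein B, and Soat2, a cholesterol esterifying enzyme, rose, Lpl by 2.95 ± 0.45 and Mttp by 0.85 ± 0.13; Apob itself was at -0.01. Of 22 bile acid genes 1 rose and 10 fell (median -0.54; 1 and 3 without the score). The riser was Abcc3, a basolateral export pump, by 3.12 ± 0.57. Baat and Slc10a1, for bile acid conjugation and uptake, fell by 1.04 and 0.61. Cyp7a1, the rate-limiting enzyme, was at 47.7, 17.9, 61.3, 56 and 80.5 CPM with vehicle and 9.77, 11, 28, 29.6 and 73.4 CPM with PFOA. The groups overlapped, with vehicle rat 2 below PFOA rats 3, 4 and 5, and the difference of -0.83 ± 0.75 was not called.

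**Figure D3:**
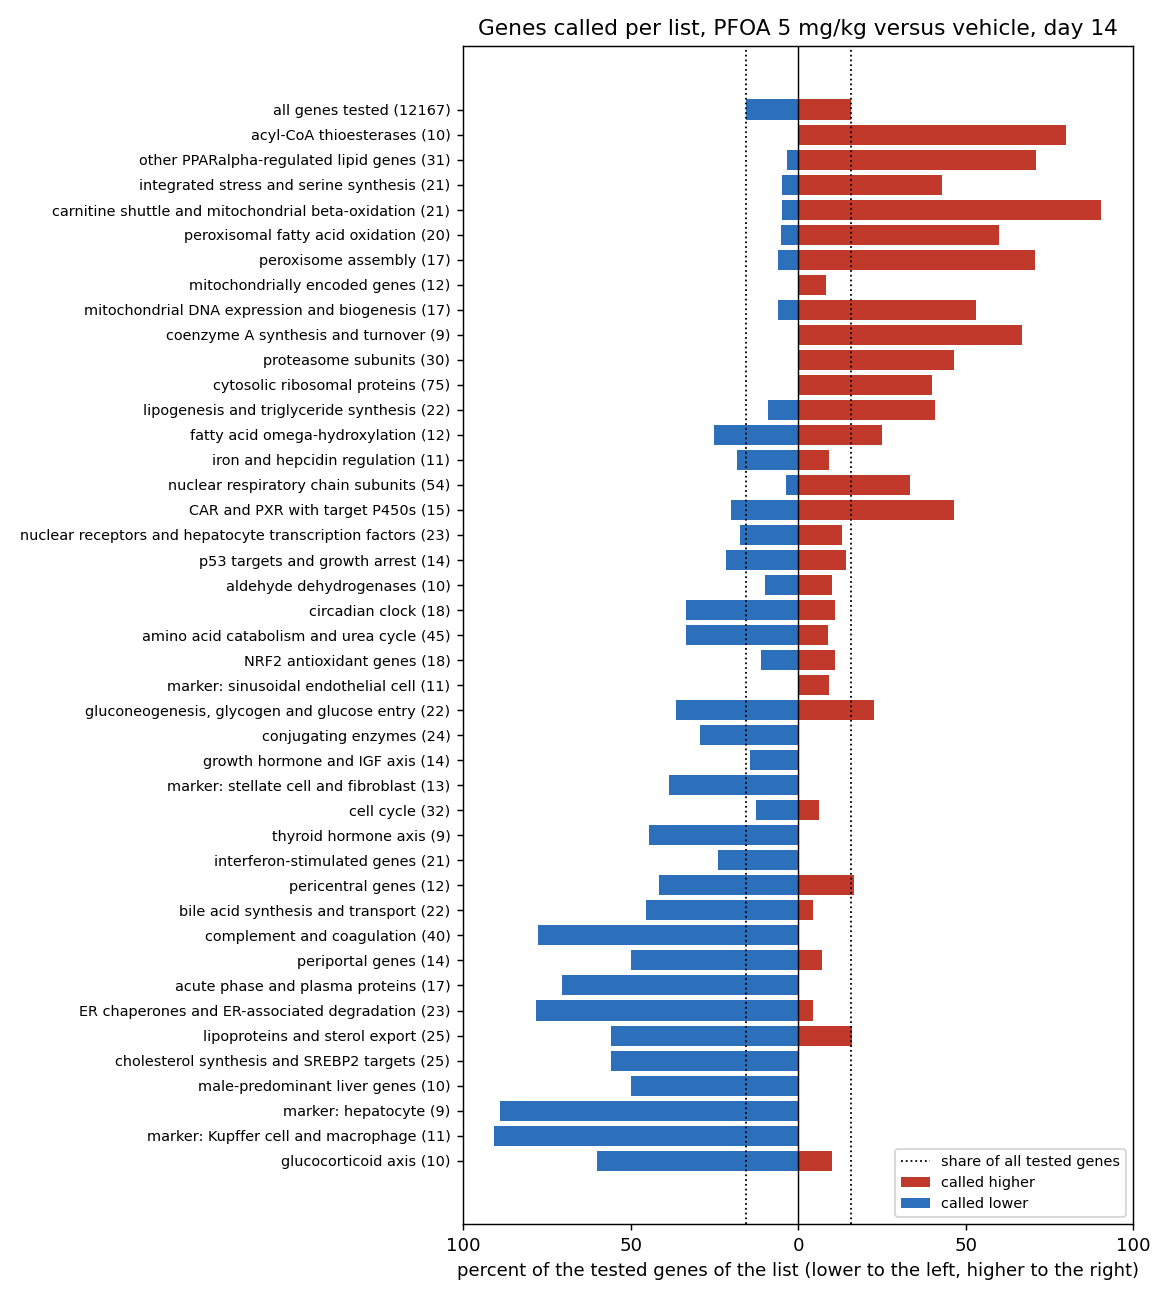
Percent of the tested genes of each list shown (number tested in parentheses) called lower, to the left, or higher, to the right. Dotted lines mark the shares of all tested genes, which are also the topmost bar. The lists below it are ordered by median log2 fold change. Lists with fewer than 9 tested genes and the lymphocyte markers are left out. Acyl-CoA thioesterases and other PPARalpha lipid genes lie highest among the lists, and macrophage markers and the glucocorticoid axis at the bottom.

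Among the named genes the largest fitted fall was that of Stac3, which in muscle couples calcium channels to contraction. It was at 58.2, 51.2, 68.3, 18.4 and 116 CPM in vehicle rats and 3.74, 1.49, 1.51, 0.312 and 1.55 CPM in PFOA rats. Vehicle rat 4 was lowest of its group yet above every PFOA rat (log2 fold change -5.27 ± 0.63, edgeR adjusted p = 7.76e-09). Nfe2, a transcription factor known from blood cells, was at 2.31, 2.26, 6.27, 2.56 and 2.6 CPM with vehicle and 0.362, 0, 0.151, 0 and 0 CPM with PFOA. Vehicle rat 3 was highest of its group and PFOA rats 2, 4 and 5 had no read (log2 fold change -4.91 ± 0.68, edgeR adjusted p = 1.31e-07). Acmsd, which diverts tryptophan breakdown from NAD synthesis, was at 25.3, 11, 24.3, 20.1 and 38.4 CPM and 2.29, 2.7, 0.981, 3.43 and 2.79 CPM. Groups did not overlap (log2 fold change -3.38 ± 0.41, edgeR adjusted p = 9.16e-09). Sult2a2, a hydroxysteroid sulfotransferase, fell by 3.17 ± 0.61 from 1620 ± 931 to 240.6 ± 146 CPM (SD, n = 5).

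The glucocorticoid list had the lowest median, -1.74, with 6 of 10 genes falling and 1 rising (6 and 0 without the score). Hsd11b1, which regenerates active glucocorticoid, was at 1362, 1037, 1645, 1588 and 1409 CPM with vehicle and 279.3, 206, 85.5, 178 and 328.2 CPM with PFOA. All PFOA rats were below all vehicle rats (log2 fold change -2.93 ± 0.37, edgeR adjusted p = 2.1e-08). Dusp1, a phosphatase induced by glucocorticoid, was at 116, 95.3, 77.6, 54.1 and 32.5 CPM and 8.2, 4.12, 7.62, 10.5 and 13.3 CPM. Groups were apart (log2 fold change -3.24 ± 0.50, edgeR adjusted p = 2.14e-06). Tsc22d3, Mt1 and Mt2A, further induced genes, fell by 2.47, 2.90 and 2.65, and Serpina6, the plasma carrier, was called higher by 0.58. The Serpina6 call was lost without vehicle rat 2, 3 or 4 or without PFOA rat 2 or 3 (adjusted p = 0.0597, 0.0509, 0.143, 0.0628 and 0.063, edgeR). Of 9 thyroid genes 0 rose and 4 fell (median -0.45), 2 without the score. Slc16a10, a carrier of thyroid hormone and aromatic amino acids, fell by 1.61 ± 0.33. Dio1, the deiodinase of liver, was at 140.2, 156, 138, 108 and 204 CPM with vehicle and 43.9, 38, 29.4, 36 and 29.3 CPM with PFOA, without overlap (log2 fold change -2.12 ± 0.28, edgeR adjusted p = 7.19e-08). Clock genes were mixed, 2 of 18 rising and 6 falling. Nr1d1, a repressor of the clock, was at 0.304, 0.943, 0.512, 0 and 2.48 CPM and 9.16, 8.58, 20.6, 7.28 and 4.03 CPM, with all PFOA rats above (log2 fold change 3.73 ± 0.55, edgeR adjusted p = 7.02e-07), while Per1, Per2 and Cry1 fell by 2.14, 1.29 and 1.38.

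**Figure D4:**
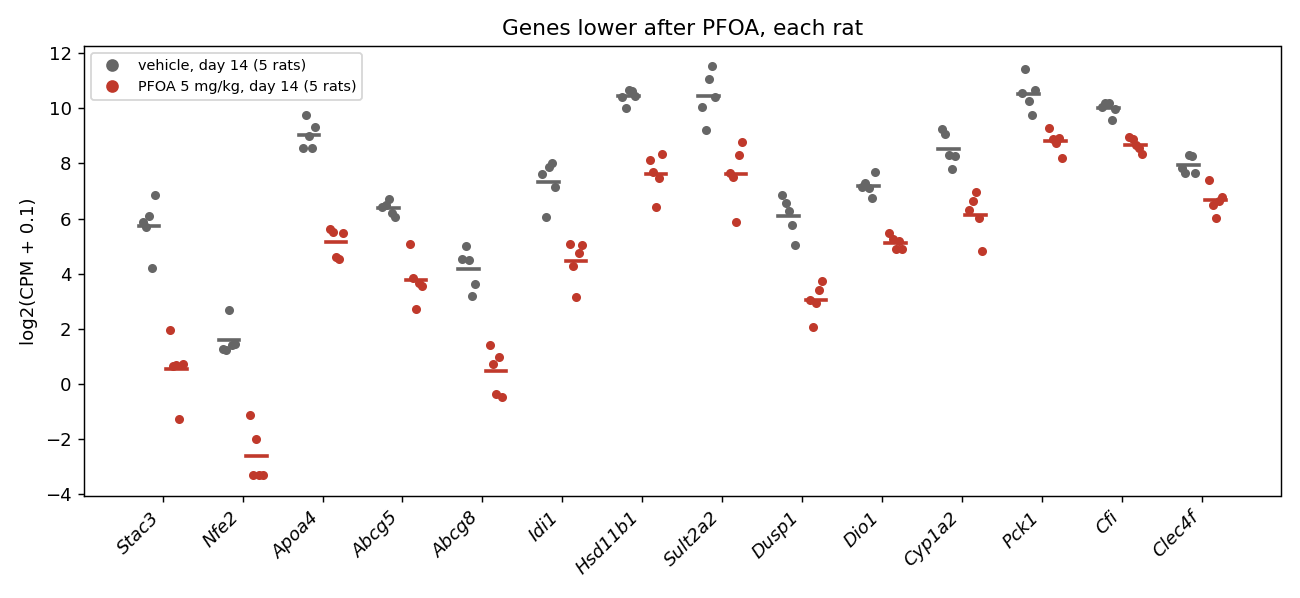
Levels of 14 genes called lower, as log2(CPM + 0.1) (y axis), for each of the 5 vehicle and 5 PFOA rats of day 14, with a line at the mean of each group. No gene shown has overlapping groups.

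In the list of the integrated stress response and serine synthesis more genes rose than fell, while most secretory genes fell. Asns, asparagine synthetase, was at 0.668, 2.45, 1.28, 0.855 and 1.11 CPM with vehicle and 8.32, 26, 46.1, 32.8 and 24.4 CPM with PFOA. PFOA rat 1 was lowest of its group and above every vehicle rat (log2 fold change 4.53 ± 0.43, edgeR adjusted p = 9.74e-12). Of 21 genes of the integrated stress response and serine synthesis 9 rose and 1 fell (median 1.04), among them Phgdh, the first enzyme of serine synthesis, by 4.27, Slc7a1, an arginine transporter, by 3.79 and Trib3 by 2.40; Atf4, the central factor, was at 0.14 and was not called. The 1 that fell was Slc38a2, a neutral amino acid transporter, by 0.93 ± 0.21. In contrast 18 of 23 chaperones and degradation genes of the endoplasmic reticulum fell and 1 rose (median -0.68), with Hspa5, the main chaperone, down by 0.78, Sdf2l1 by 2.07 and Xbp1 by 1.19. Without the score 11 fell. Of 40 complement and coagulation genes 0 rose and 31 fell (median -0.61), 16 without the score, with Cfi, complement factor I, down by 1.31 ± 0.16 and C1s down by 2.17 ± 0.28. Of 17 acute phase and plasma protein genes 0 rose and 12 fell, 8 without the score. Of 22 gluconeogenic and glycogen genes 5 rose and 8 fell (1 and 6 without the score), and Pck1, the gluconeogenic carboxykinase, was at 1509, 2762, 1225, 870.4 and 1632 CPM with vehicle and 627, 473, 425, 487 and 290.9 CPM with PFOA, all PFOA rats lower (log2 fold change -1.45 ± 0.31, edgeR adjusted p = 0.000228). Without vehicle rat 4 the number that rose in this list was 2. Cdkn1a, the p21 cell cycle inhibitor, was at 21.4, 24.7, 24.4, 17.8 and 30.8 CPM and 3.62, 11.6, 14.6, 5.51 and 4.96 CPM, again without overlap (log2 fold change -1.51 ± 0.39, edgeR adjusted p = 0.00259).

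Markers of the hepatocyte list and of macrophages were lower. Of 10 hepatocyte markers listed 9 were found in the counts, and all 9 were detected. Their summed level ran from 129190 to 201855 CPM with vehicle and from 77626 to 116905 CPM with PFOA, without overlap. Of these 9 markers, 8 fell and 0 rose (median -0.84), and 5 fell without the score. Apoa1 and Apob are also in the lipoprotein list and Fgb in the coagulation list. Tf, transferrin, was at 16980.4, 25282, 19703, 12415 and 20693 CPM with vehicle and 10674, 9212, 9962, 6634 and 6373 CPM with PFOA, all PFOA rats lower (log2 fold change -1.05 ± 0.20, edgeR adjusted p = 4.27e-05). Of 11 Kupffer cell and macrophage markers 10 fell and 0 rose (median -1.12), 4 without the score, and their sum was 617.5 to 1101 CPM with vehicle and 262.3 to 522.3 CPM with PFOA. Clec4f, a lectin of Kupffer cells, was at 228, 201, 318.96, 308.1 and 201 CPM and 167, 90.2, 65.7, 99.5 and 110.3 CPM, with PFOA rat 1 the highest of its group and below every vehicle rat (log2 fold change -1.34 ± 0.29, edgeR adjusted p = 0.000385). In bulk liver fewer cells of a type and less RNA per cell cannot be told apart. Of 13 stellate cell markers 5 fell (2 without the score), of 11 sinusoidal markers 1 rose (Oit3; 0 without the score), of 9 lymphocyte markers 3 fell (1 without the score), and erythroid markers had 0 of 6 called. The Oit3 call was lost without vehicle rat 3, 4 or 5 (adjusted p = 0.0927, 0.106 and 0.0928, edgeR). It was also lost without PFOA rat 3, 4 or 5 (adjusted p = 0.0561, 0.0762 and 0.0667, edgeR). Fabp4, a fat and endothelial marker, was at 3.1, 6.03, 4.86, 6.12 and 7.3 CPM with vehicle and 7.48, 4.66, 4.53, 7.8 and 199 CPM with PFOA, where rat 5 alone was high, and it was not called (log2 fold change 1.55 ± 0.63, edgeR adjusted p = 0.053). Without that rat its log2 fold change was 0.14.

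Reads from mitochondrially encoded genes took 3.42% ± 0.281 (SD, n = 5) of counts with vehicle and 4.58% ± 0.574 (SD, n = 5) with PFOA, a difference of 1.16 points (exact two-sided permutation test, p = 0.0159, adjusted over 6 values 0.0477, smallest possible p 0.00794). Leaving out each rat in turn gave differences of 1.02 to 1.40. The 10 most abundant genes took 21.1% ± 2.53 with vehicle and 16.2% ± 2.71 with PFOA (SD, n = 5, same permutation test, p = 0.0159, adjusted 0.0477). Of 12 mitochondrially encoded genes 1 rose and 0 fell, that being Mt-nd6, by 1.03 ± 0.34, and 0 were called without the score. Of 54 nuclear subunits of the respiratory chain 18 rose and 2 fell (median 0.17), and 5 rose without the score (median 0.54). The fallers Ndufa2 and Ndufa6 changed sign without the score, to 0.30 and 0.0602. Of 75 ribosomal protein genes 30 rose with the score (median 0.28), and 0 without it (median 0.82). Median correlations with the library axis were -0.979 for the ribosomal protein genes and -0.96 for the respiratory chain subunits. The score was built from genes that vary along that axis, so calls with it in these lists are not independent of it. The same holds for other genes that vary along the axis.

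The dose of 5 mg/kg was set beside 15 mg/kg at day 14, sharing its PFOA libraries with the comparison above. Of 12167 genes 9 differed, 2 higher and 7 lower at 15 mg/kg (0.074%), and 1179 had an unadjusted p below 0.05. Without the score the counts were 0 and 1458. Library scores were 0.89, -0.05, -1.81, 0.65 and 0.795 at 15 mg/kg, against -1.11, -0.66, 0.91, -1.22 and -2.32 at 5 mg/kg. With the score centred within groups 5141 genes differed, so the count hangs on how the score is used. Without PFOA rat 1 of the 5 mg/kg group each of the 6 most significant genes was no longer called, with adjusted p from 0.182 to 0.252. Fabp3, a heart-type fatty acid binding protein, was 1.87 ± 0.398 CPM with vehicle, 7.57 ± 6.15 CPM at 5 mg/kg and 36.9 ± 45.1 CPM at 15 mg/kg (SD, n = 5), with a log2 difference of 2.66 ± 0.49 between the doses (adjusted p = 0.0162, edgeR). Alpha-2u globulin LOC259244, a urinary protein of male rat liver, was 1.73 lower at 15 than at 5 mg/kg on the log2 scale (adjusted p = 0.0308, edgeR; 0.0521 without PFOA rat 5). For Acot1 the dose levels were 0.606 ± 0.542, 224 ± 142, 732 ± 61.5 and 797 ± 224 CPM at 0, 1, 5 and 15 mg/kg (SD, n = 5), and the difference between the 2 highest doses was 0.34 ± 0.36 on the log2 scale (adjusted p = 0.833, edgeR).

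**Figure D5:**
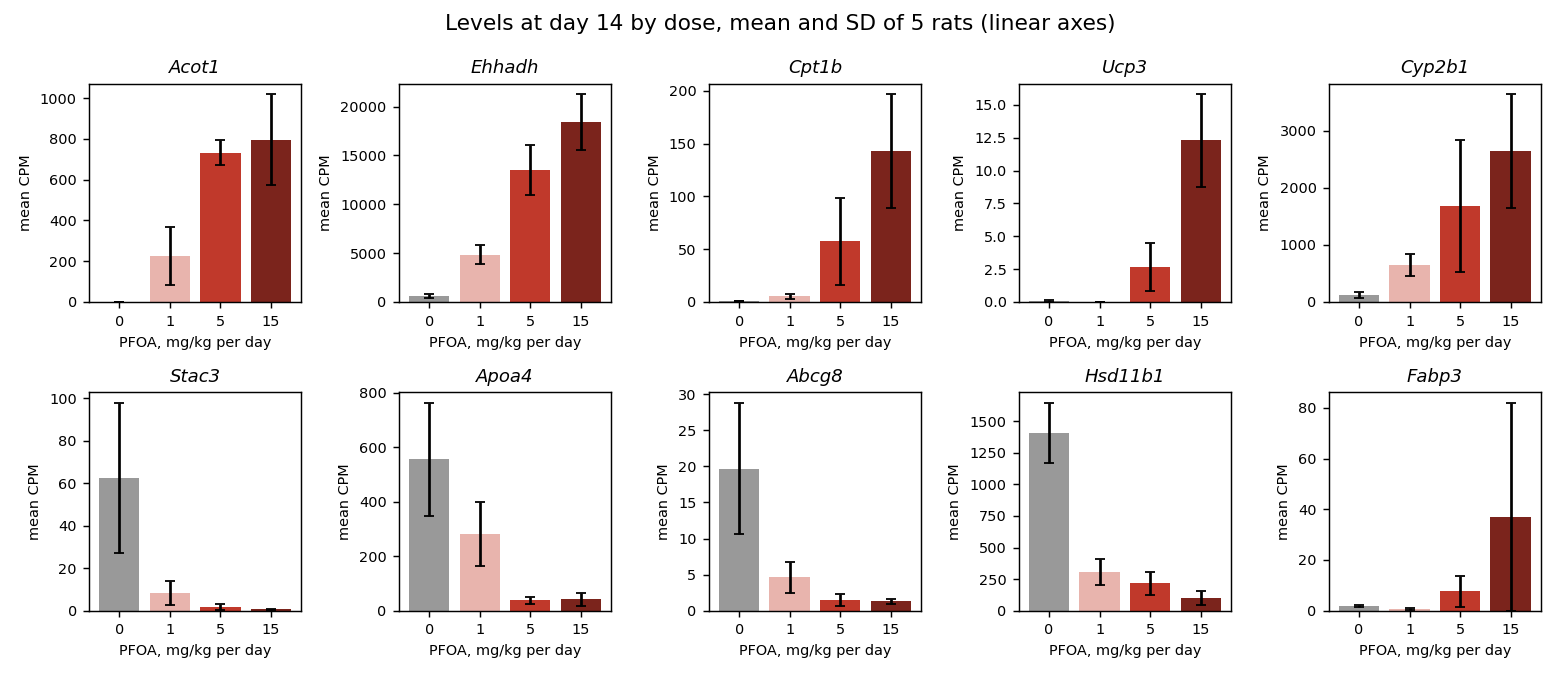
Mean CPM (y axis, linear, bars from 0, error bars SD of 5 rats cut at 0) at day 14 for 10 genes against PFOA dose (x axis, 0, 1, 5 and 15 mg/kg per day). Acot1 and Ehhadh at 1 mg/kg already lie above vehicle, while Ucp3 was at 0 with 1 mg/kg.

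Across time, the effect of 5 mg/kg at day 14 was set against that at day 7, each against its own vehicle, and against day 28. In the first, 1 gene differed (0.00822%), Fchsd2, an adaptor protein of endocytosis: vehicle and PFOA means were 35.8 ± 14.1 and 39.6 ± 9.02 CPM at day 7 and 47.6 ± 16.1 and 23.3 ± 6.92 CPM at day 14 (SD, n = 5), a difference of -1.27 ± 0.25 on the log2 scale (adjusted p = 0.0418, edgeR). That call was lost without vehicle rat 2 (adjusted p = 0.218) or PFOA rats 2, 3, 4 or 5 (adjusted p from 0.0679 to 0.119). At an unadjusted p below 0.05 there were 1385 genes, and 472 without the score, where 0 passed the adjusted threshold. The comparisons share the day 14 libraries, and day 28 minus day 14 gave 0 genes (0%) by edgeR with or without the score. At an unadjusted p below 0.05 it gave 876 and 671. With the score centred within groups, 2955 genes differed for day 28 minus day 14 and 140 for day 14 minus day 7, so both counts hang on how the score is used. Acot1 at 5 mg/kg was at 687 ± 130 CPM at day 7, 732 ± 61.5 at day 14 and 493 ± 163 at day 28 (SD, n = 5), and Ehhadh at 13170.1 ± 4150.3, 13508 ± 2549 and 15245 ± 5372 CPM (SD, n = 5). Hsd11b1 at 5 mg/kg was at 437 ± 168, 215 ± 93.8 and 50.1 ± 21.0 CPM, with vehicle at 1425 ± 725, 1408 ± 239 and 923 ± 270 CPM (SD, n = 5). In the fit that gave 1 and 0 genes, neither difference between days was called for Acot1, Ehhadh or Hsd11b1.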

How the data were processed

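Polyadenylated liver RNA of 60 rats was sequenced, and per the submitters' processing notes bcl2fastq 2.20.0.422, Trimmomatic 0.33, STAR 2.5.2b and featureCounts of Subread 1.6.0 were used with Rnor_6.0. The authors deposited raw counts per gene for 32883 genes. How shared reads were counted and the strand setting are not given in the sources used here. Genes with enough reads by edgeR's filter (minimum count 10, minimum total 15) numbered 12167. They were fitted with edgeR 4.0.16 in R 4.3.3 (quasi-likelihood, robust, trimmed mean of M values) over 12 groups and 60 libraries with the library score, leaving 47 residual degrees of freedom, and genes were called at a Benjamini-Hochberg adjusted p below 0.05. The score lowered the biological coefficient of variation from 0.388 to 0.196. It was built from these same counts along their main axis within groups, so a fall was fixed in advance and is no support for the score. The fit took the score as known, and this applies to every call made with it. Alternatives used limma 3.58.1 and DESeq2 1.42.0. Libraries of a group differed by more than counting noise in every pair (lowest chi-square per degree of freedom 23.2 and 42.2). Shares of counts were compared by exact permutation. The script was tested on simulated data. Members and gene lists were chosen with earlier results of these data known. Named genes were a fixed set, the 15 largest and 15 smallest fold changes without overlap at a mean of at least 1 CPM, the 3 most significant of each list with those called against the rest of it, and the 6 most significant of the other comparisons. Some named genes are not reported here. Other members of the lists are named as examples, chosen after their values were seen. Intervals cover counting error only.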

Additional observations from a re-analysis of the deposited data

Results flagged for a closer look

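Values that stood apart from the other 4 rats of their group were 9 of 104 groups of 5 tested (8.65%), where about 5% arise by chance. The groups tested hold the same rats over and over, so they are not independent and the 5% is only a guide. Among the PFOA rats these were the lowest Acot1 level of 626 CPM, the highest LOC100361547 level of 360.7 CPM, the highest Fabp4 level of 199.4 CPM, and the highest summed erythroid (3494 CPM) and muscle and adipose (248.3 CPM) marker levels, the last 3 in rat 5 and the first 2 in rat 3. Among the vehicle rats they were the highest Fgf21 level of 1.99 CPM (rat 4), Nfe2 level of 6.27 CPM (rat 3), total count of 17682937 (rat 1) and summed cholangiocyte marker level of 33.8 CPM (rat 5). Fchsd2 was the 1 gene whose response to 5 mg/kg differed between days by a test of the difference, with a log2 difference of -1.27 at day 14 minus day 7.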

How the results depend on the processing

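Each library came from a different rat and the labels name no pairs of rats between groups, so no paired analysis was made. The counts of higher and lower genes, 1915 and 1904, became 666 and 641 without the library score and 1051 and 1187 at a fold of at least 1.5. Other settings gave 1416 to 2215 higher and 1447 to 2080 lower, and leaving out each rat in turn gave 1626 to 2028 and 1559 to 1853. For 15 against 5 mg/kg the 9 genes became 0 without the score, 5141 with the score centred within groups, 1 without the filter, 60 with DESeq2, 5 with voom, 1 without the 3 libraries of score below -1.5 (chosen after seeing the data) and 0 to 17 leaving out each rat. For day 14 minus day 7 the 1 gene became 0 without the score or with a ribosomal protein score, 140 with the centred score, 17 with DESeq2 and 0 to 32 leaving out each rat. For day 28 minus day 14 the 0 genes became 2955 with the centred score. The causes were not tested. The rats of the 15 mg/kg and other-day groups were not left out in turn. The difference in mitochondrial share ran from 1.02 to 1.40 leaving out each rat, and that in score from -0.766 to 0.0404, positive without PFOA rat 5. Signs turned for Fasn (-0.0482 without the score, -0.13 with voom, -0.0412 in the 10 libraries alone, -0.35 without low-score libraries, and -0.40 to 0.42 leaving out each rat, negative without PFOA rat 5), Ndufa2 and Ndufa6 (0.30 and 0.0602 without the score), Alas2 (-0.26 with voom, -0.40 without low-score libraries, and -0.43 to 0.68 leaving out each rat, negative without PFOA rat 5) and Krt19 (-1.61 to 0.16 leaving out each rat, positive without vehicle rat 5). Of 195 called named genes 131 kept their call without the score, and 171 to 194 under every other setting.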

Other observations

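Lists not described above, with counts to be read against 15.7% higher and 15.6% lower of all genes, were as follows. Counts without the score are to be read against 5.47% higher and 5.27% lower. Of 30 proteasome subunits 14 rose and 0 fell (median 0.28), among them Psmd13, a lid subunit, at 0.64. Without the score 6 rose (median 0.55), and the median correlation of this list with the library axis was -0.92. Of 9 genes of coenzyme A synthesis and turnover 6 rose and 0 fell (median 0.36), 2 without the score, with Pank1, the first kinase of that pathway, at 1.00. Of 17 genes of mitochondrial DNA expression and biogenesis 9 rose and 1 fell, and 1 rose without the score. Of 45 amino acid and urea cycle genes 4 rose and 15 fell (median -0.17), 2 and 9 without the score, with Cps1, the first urea cycle enzyme, down by 0.99 and Agxt, a glyoxylate transaminase, up by 1.27.

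Of 14 periportal genes 1 rose and 7 fell, and of 12 pericentral genes 2 rose and 5 fell (0 and 2 without the score), with Cyp1a2, a pericentral P450, down by 2.22. Of 10 male-predominant genes 0 rose and 5 fell (median -0.81), 2 without the score, and of 5 female-predominant genes 0 rose and 2 fell, 1 without the score. Of 14 growth hormone and IGF genes 0 rose and 2 fell, 1 without the score, and Igf1 stood at -0.23 and was not called. Of 32 cell cycle genes 2 rose and 4 fell (1 and 2 without the score; 2 fell without PFOA rat 2), of 14 p53 targets 2 rose and 3 fell (0 and 1), and of 21 interferon-stimulated genes 0 rose and 5 fell (0 and 1). Of 11 iron genes 1 rose and 2 fell, with Tfrc, the transferrin receptor, down by 1.52. Of 10 aldehyde dehydrogenases other than Aldh1a1 and Aldh1a7, which were counted with the CAR and PXR targets and rose, 1 rose and 1 fell, and 0 were called without the score. Of 23 nuclear receptors and hepatocyte factors 3 rose and 4 fell, with Hnf4a down by 0.64; 1 and 0 were called without the score, and 2 fell without vehicle rat 1 or 5, or without PFOA rat 2, 3, 4 or 5. Markers of cholangiocytes had 1 of 5 higher (0 without the score), of neutrophils 0 of 2 called and of muscle and fat 0 of 2 called (1 higher without the score).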
